A study of Homo sapiens with 18 samples.

Results

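The 10 genes described here encode the main chaperones and ATP-dependent or stress-activated proteases of human mitochondria: HSPA9, HSPD1, HSPE1, TRAP1, LONP1, CLPP, CLPX, YME1L1, AFG3L2 and HTRA2. They were taken by symbol, and all 10 had a row among the 15747 genes of the table for cytoplasmic and polysomal RNA and among the 44682 genes of the whole-cell table. Nearly all mitochondrial proteins are made on cytosolic ribosomes, enter as unfolded chains and are folded by these chaperones, while the proteases remove chains that fail to fold or to find their partners. When folding in mitochondria is disturbed, cells are known to raise mRNAs of this group through the mitochondrial unfolded protein response, and mitochondrial stress is also known to act through the integrated stress response and its transcription factors.

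The study used DU145, an established line from a metastatic prostate carcinoma. Cells received 40 µM GC7 for 24 h or vehicle alone. GC7 inhibits deoxyhypusine synthase and so the hypusine modification of eIF5A, a translation factor known for helping ribosomes past stretches of proline. RNA was sequenced from GC7 and vehicle cells as whole-cell RNA, as cytoplasmic RNA and as RNA of heavy polysomes, with 3 libraries in each of the 6 groups, so the comparisons asked how GC7 changed mRNA abundance and ribosome loading. Per the labels' protocols, emetine, which holds ribosomes on mRNA, was added before lysis in GC7 and vehicle cells alike, and nuclei and then mitochondria were spun out before the sucrose gradients. The fraction values therefore describe mRNA that stayed in that supernatant, and mRNA bound to mitochondria was not measured separately.

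The tables do not name their numerator. Here the category "UP" was taken to mean higher with GC7, and the sign of the whole-cell table was turned round because its values correlated at -0.35 with cytoplasm and -0.42 with polysomes across 14098 genes, which are not independent replicates. On the other reading every direction below is inverted. Only comparisons were tabulated, without values per library. Sequencing depth per library is therefore unknown, no SD can be given, and p-values measure the spread between libraries that the labels do not call separate cultures. Mean normalized counts summed to 29272958 in cytoplasm and 32579359 in polysomes. Of the 4 epithelial markers, KRT18 and KRT8 were high, with mean normalized counts of 41006 and 32028 in cytoplasm in the authors' deposited table. EPCAM stood at 775 there and CDH1 at 337, against a median of 401 over all genes. CD68 was the 1 leukocyte marker of 4 with fraction counts, at 774 in cytoplasm, the fibroblast markers COL1A1 and COL1A2 stood at 62.5 and 26.1, and KLK3, KLK2, TMPRSS2, PTPRC, CD3E and CDH5 had the whole-cell value shared by 18022 genes, the value of genes without reads.

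On heavy polysomes, 4 of the 10 mRNAs rose with GC7 and 1 fell. The mitochondrial HSP70 HSPA9, the Lon protease LONP1, the HSP90 paralogue TRAP1 and the chaperonin HSPD1 were higher, and HSPE1, the co-chaperonin that closes the HSPD1 chamber, was lower. A gene was called where the adjusted p of the authors' deposited table was under 0.05, which 11.1% of all genes met, 5.61% in the higher and 5.48% in the lower direction. In cytoplasm 1 of 10 was called, LONP1, which rose, against 4.24% of all genes, 2.29% called higher and 1.95% called lower. In whole cells 0 of 10 passed after Benjamini-Hochberg adjustment, as did 0.0% of 44682 genes, and 0 of 10 had an unadjusted p under 0.05, against 2.99% of genes. Over the 10 genes the median polysomal log2 fold change in the authors' deposited table was 0.14, against 0.00 over all genes, and the cytoplasmic median was 0.10, against 0.00. Without the shrinkage described below, this order was reversed, at 0.38 in cytoplasm and 0.19 on polysomes. Over all genes both unshrunken medians were -0.01. In these bulk libraries a change in the share of cells that hold an mRNA and a change in its amount per cell cannot be told apart. The 5 mRNAs called on polysomes are all 4 chaperones and 1 of the 6 proteases.

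Judged from the deposited values, SEs and p-values, deposited fold changes are shrunken toward 0, more so where the error is large. No label states this. An unshrunken log2 fold change was therefore recomputed for each gene from the deposited value and SE, and group levels were computed from it and the deposited mean over the libraries of a fraction. These computed levels are mean normalized counts of 3 libraries with GC7 and 3 with vehicle. They depend on transcript length and are compared within a gene only.

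HSPA9 pulls precursors through the inner membrane as the motor of import and folds them in the matrix. Its gene lies on the minus strand of chromosome 5, from 138553756 to 138575675 in GRCh38. On polysomes its computed level was 11557 with GC7 and 4480 with vehicle, a fold of 2.58 with a 95% interval of 1.89 to 3.53. The authors' deposited table gives a polysomal log2 fold change of 1.29 (SE 0.24, adjusted p = 4.56e-07), and HSPA9 was the 1 member in a category other than not significant, which holds 1.77% of genes. The cytoplasmic level was 13202 with GC7 and 9477 with vehicle, and the fold of 1.39 had an interval of 0.77 to 2.51. In the authors' deposited table the cytoplasmic log2 fold change was 0.09 (SE 0.21, adjusted p = 0.643), so the computed fold rests largely on the recomputation. The interval leaves out the uncertainty of that step. The cytoplasmic interval includes no change and also nearly the polysomal fold, so the missing call in cytoplasm does not show that HSPA9 mRNA was steady there.

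TRAP1, the HSP90 of the mitochondrial matrix, lies on chromosome 16 from 3651639 to 3717553 on the minus strand. Its computed polysomal level was 5212 with GC7 and 3297 with vehicle, a fold of 1.58 (95% interval 1.23 to 2.04). In the authors' deposited table the polysomal log2 fold change was 0.56 (SE 0.20, adjusted p = 0.00747). The cytoplasmic level was 4249 with GC7 and 4561 with vehicle, with an interval of the fold from 0.49 to 1.75. In the authors' deposited table the cytoplasmic log2 fold change was -0.02 (SE 0.19, adjusted p = 0.943). TRAP1 thus had a polysomal call beside a cytoplasmic interval that runs to either side of 1. The annotation places 59 bases of its exons opposite exons of DNASE1, and whether the counting used strand is not given in the sources used here.

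HSPD1 and HSPE1, the HSP60 ring and its HSP10 lid, lie head to head on chromosome 2 and share a promoter region. HSPD1 (197486584 to 197516737, minus strand) and HSPE1 (197500140 to 197503449, plus strand) had RefSeq start sites 105 bases apart, at 197500274 and 197500379, and their promoter windows shared 204 bases. The second HSPD1 start, at 197499840, lies 539 bases from that of HSPE1. The windows below run from 250 bases before to 50 after a start, in RefSeq's GRCh38.p14, and are shown because these neighbours moved in opposite directions on polysomes; capitals mark motif matches described further on.
HSPE1 chr2:197500129-197500428 plus strand: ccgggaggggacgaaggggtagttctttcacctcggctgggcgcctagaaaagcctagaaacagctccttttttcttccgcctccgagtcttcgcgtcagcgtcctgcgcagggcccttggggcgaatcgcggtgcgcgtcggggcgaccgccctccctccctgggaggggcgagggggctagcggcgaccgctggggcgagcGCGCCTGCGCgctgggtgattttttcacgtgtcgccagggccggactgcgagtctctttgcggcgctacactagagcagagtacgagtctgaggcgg
HSPD1 second start chr2:197499791-197500090 minus strand: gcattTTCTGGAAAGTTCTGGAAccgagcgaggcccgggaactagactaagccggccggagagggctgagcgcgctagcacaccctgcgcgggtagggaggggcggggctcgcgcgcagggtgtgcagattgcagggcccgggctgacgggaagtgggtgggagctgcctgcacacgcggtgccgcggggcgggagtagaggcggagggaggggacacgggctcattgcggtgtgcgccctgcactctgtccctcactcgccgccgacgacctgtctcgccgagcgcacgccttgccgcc

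HSPD1 had a computed polysomal level of 6648 with GC7 and 4251 with vehicle, a fold of 1.56 (95% interval 1.16 to 2.11). The authors' deposited table gives a polysomal log2 fold change of 0.50 (SE 0.24, adjusted p = 0.0376), and this call ended at an adjusted p under 0.01. HSPE1 had a polysomal level of 5333 with GC7 and 9361 with vehicle, a fold of 0.57 (interval 0.45 to 0.72). Its deposited polysomal log2 fold change in the authors' deposited table was -0.74 (SE 0.18, adjusted p = 0.000176). The intervals of both partners lie on opposite sides of 1 and do not overlap. In cytoplasm HSPD1 had 7072 with GC7 and 5116 with vehicle, and HSPE1 had 5527 with GC7 and 9520 with vehicle. Neither was called there by the adjusted p of the authors' deposited table, 0.544 for HSPD1 and 0.203 for HSPE1, although the unadjusted p of HSPE1 was 0.0200. The cytoplasmic fold of HSPE1 was 0.58 (interval 0.37 to 0.92), close to its polysomal fold, and that of HSPD1 was 1.38 (interval 0.87 to 2.20). Both are uncertain in level because RefSeq lists 22 processed or other pseudogenes named after HSPD1 and 28 named after HSPE1, with which reads may be shared, and because 192 of the 557 exon bases of HSPE1 also belong to the read-through gene HSPE1-MOB4.

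HSPE1 also differs from the other 9 by its short coding sequence of 306 bases, against 831 to 2877 bases in the others. It is among the shortest of 5 classes of genes by coding length, from 75 to 750 bases, where 13.6% of 2593 genes were called lower on polysomes and the median unshrunken log2 fold change was -0.15. In the class from 1653 to 2514 bases, which holds HSPA9, HSPD1, TRAP1, CLPX, YME1L1 and AFG3L2, 2.91% were called lower and 6.05% higher, with a median of 0.04. The part of coding length in the polysomal value of HSPE1 was not tested; its own unshrunken value was -0.81 (SE 0.17).

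**Figure D1:**
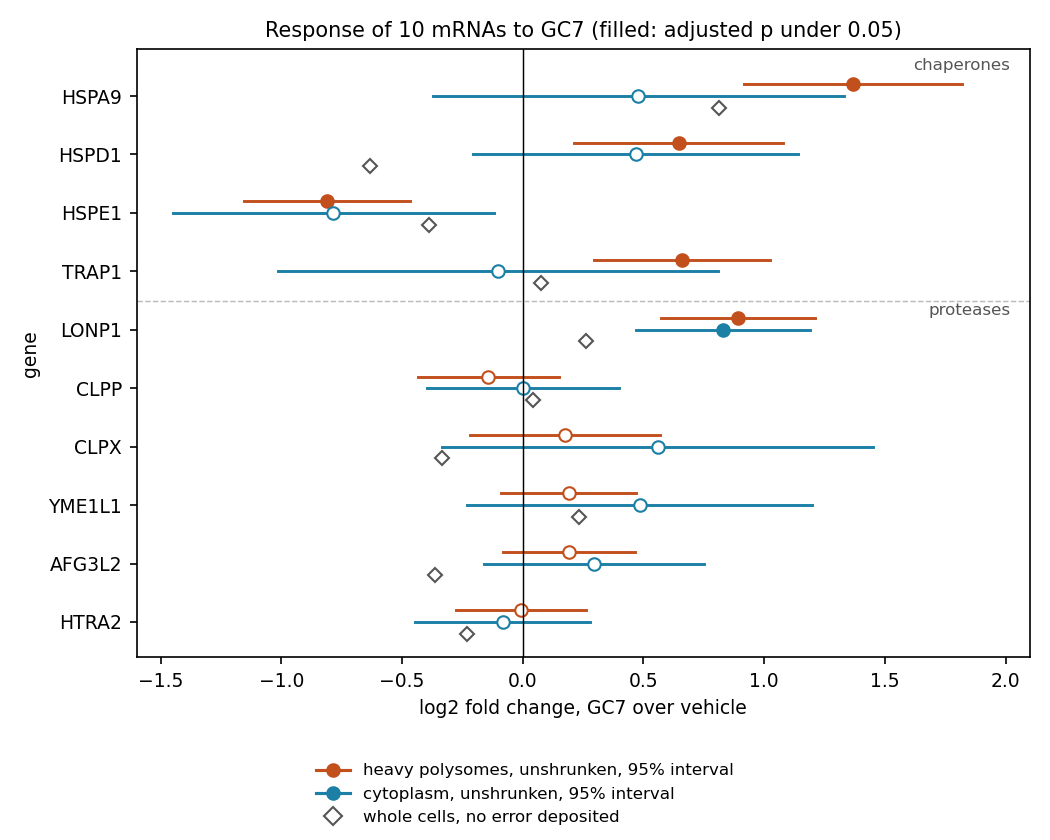
Log2 fold change of GC7 over vehicle (x axis) for the 10 mRNAs (y axis), as unshrunken values with 95% intervals in heavy polysomes and cytoplasm and as values without error in whole cells; filled circles have an adjusted p under 0.05. On polysomes HSPA9, HSPD1, TRAP1 and LONP1 lie right of 0 and HSPE1 left of it, and in cytoplasm only LONP1 is filled.

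LONP1, the matrix protease that degrades oxidised and misfolded chains and binds mitochondrial DNA, was the member that rose in both fractions. Its gene spans 5691834 to 5720572 on the minus strand of chromosome 19. In cytoplasm its computed level was 6128 with GC7 and 3446 with vehicle, a fold of 1.78 (95% interval 1.38 to 2.28). On polysomes it was 8834 with GC7 and 4765 with vehicle, a fold of 1.85 (interval 1.49 to 2.31). The authors' deposited table gives log2 fold changes of 0.75 in cytoplasm (SE 0.19, adjusted p = 0.000682) and 0.83 on polysomes (SE 0.17, adjusted p = 5.16e-06). Its whole-cell log2 fold change, with the sign turned round, was 0.26 (unadjusted p = 0.697 as the authors' deposited table gives it). The annotation has 42 bases of its exons opposite those of RPL36, a ribosomal protein gene with a mean normalized polysomal count of 45024 and a log2 fold change of 0.07 (adjusted p = 0.794) as the authors' deposited table has it.

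The remaining 5 proteases did not pass in either fraction. Their genes are CLPP (chromosome 19, 6361531 to 6370242, plus strand), CLPX (chromosome 15, 65148219 to 65185342, minus strand), YME1L1 (chromosome 10, 27110111 to 27155266, minus strand), AFG3L2 (chromosome 18, 12328944 to 12377227, minus strand) and HTRA2 (chromosome 2, 74529596 to 74533350, plus strand). CLPP and CLPX are the peptidase ring and the unfoldase of one matrix protease. CLPP had 6596 with GC7 and 7280 with vehicle on polysomes, and CLPX 911 with GC7 and 807.6 with vehicle. The 95% intervals of their polysomal folds ran from 0.74 to 1.11 for CLPP and from 0.86 to 1.48 for CLPX. YME1L1 and AFG3L2 are AAA proteases of the inner membrane that face opposite sides. YME1L1 had 3276 with GC7 and 2871 with vehicle (fold 1.14, interval 0.94 to 1.38), and AFG3L2 2972 with GC7 and 2605 with vehicle (fold 1.14, interval 0.94 to 1.38). HTRA2, a serine protease of the intermembrane space that also acts in cell death when released, had 2160 with GC7 and 2171 with vehicle on polysomes (interval of the fold 0.83 to 1.20). Polysomal adjusted p-values of these 5 in the authors' deposited table ran from 0.452 for AFG3L2 to 0.985 for HTRA2. Their upper bounds lie below the lower bound of LONP1, 1.49, by the least for CLPX, at 1.48. Those of CLPX, YME1L1 and AFG3L2 lie above the lower bounds of HSPD1, 1.16, and TRAP1, 1.23. That of HTRA2 lies above the lower bound of HSPD1. Differences between members were not tested.

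In cytoplasm the same 5 had wider intervals. CLPX had 881.5 with GC7 and 597.9 with vehicle, and its fold of 1.47 had an interval of 0.79 to 2.74. YME1L1 had 1877 with GC7 and 1341 with vehicle (interval 0.85 to 2.30), and AFG3L2 2225 with GC7 and 1814 with vehicle (interval 0.89 to 1.68). CLPP had 3981 with GC7 and 3979 with vehicle (interval 0.76 to 1.32). HTRA2 had 1406 with GC7 and 1489 with vehicle (interval 0.73 to 1.21). For CLPX, YME1L1 and AFG3L2 the cytoplasmic upper bounds exceeded those on polysomes, so a rise in cytoplasm was less closely bounded than one on polysomes. Values of HTRA2 are uncertain where 596 bases of its exons lie opposite exons of LOXL3, whose own mean normalized polysomal count was 178 in the authors' deposited table.

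**Figure D2:**
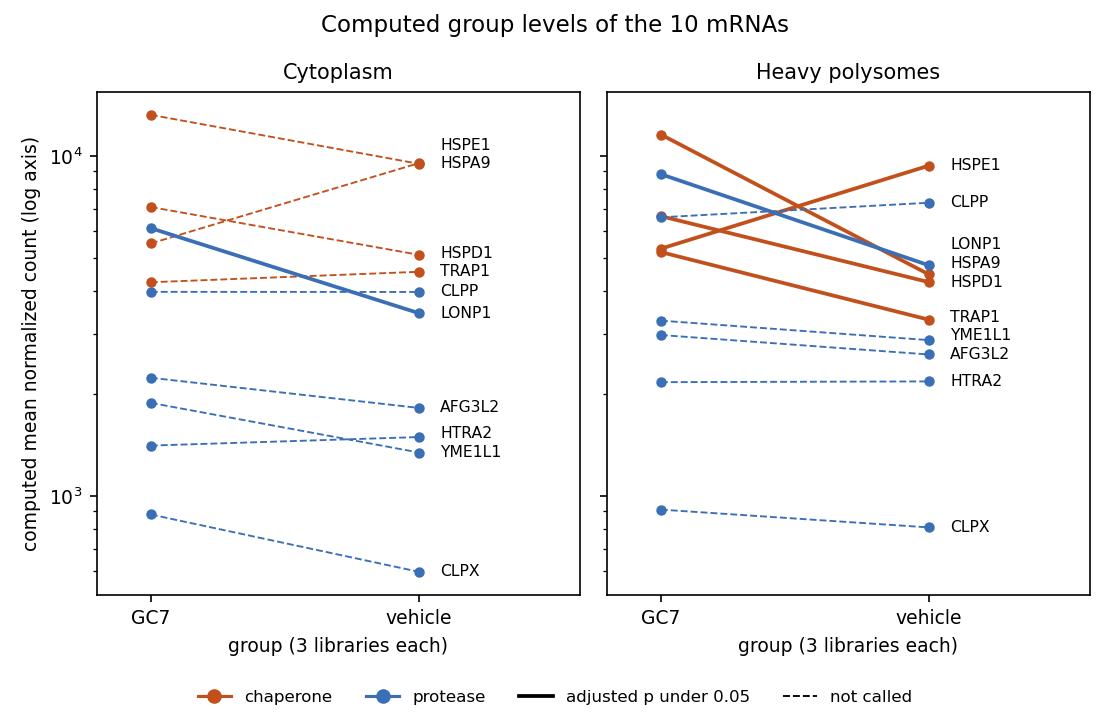
Computed mean normalized count of each mRNA (log axis) with GC7 and with vehicle, 3 libraries a group, in cytoplasm (left panel) and heavy polysomes (right panel); thick lines join groups with an adjusted p under 0.05. On polysomes HSPA9 stands at 11557 with GC7 and 4480 with vehicle while HSPE1 stands at 5333 with GC7 and 9361 with vehicle.

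Whether the response differed between polysomes and cytoplasm was tested on unshrunken log2 fold changes, polysomal minus cytoplasmic, by a normal approximation to that difference and Benjamini-Hochberg adjustment over all genes. The difference was 0.89 for HSPA9 (SE 0.49, 95% interval -0.07 to 1.85). For TRAP1 it was 0.76 (SE 0.50, interval -0.22 to 1.75). These were the 2 members whose difference was largest in size. HSPD1 had 0.18 (interval -0.62 to 0.98), LONP1 0.06 (interval -0.42 to 0.54) and HSPE1 -0.03 (interval -0.77 to 0.72). The other 5 ran from -0.39 for CLPX to 0.08 for HTRA2. None of the 10 passed, with an adjusted p of 0.999 for each, nor did any of 15744 genes (0.0%). An unadjusted p under 0.05 was met by 2.15% of genes and by 0 of the 10. The test took the errors of both fractions as independent. With errors correlated at 0.5, as could arise if both fractions came from one lysate, HSPA9 alone of the 10 was among the 8.54% of genes with an unadjusted p under 0.05, and its adjusted p was 0.458, the lowest over the alternatives run, which reached 0.999. A polysomal call without a cytoplasmic one is therefore not shown to be a change in ribosome loading for HSPA9, TRAP1, HSPD1 or HSPE1.

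Whole-cell values carry no error in the deposited table. With the sign turned round, the authors' deposited table gives log2 fold changes of 0.81 for HSPA9 (unadjusted p = 0.146), -0.63 for HSPD1 (unadjusted p = 0.313) and -0.39 for HSPE1 (unadjusted p = 0.388). The other 7 lay between -0.36 for AFG3L2 and 0.26 for LONP1, with unadjusted p-values from 0.325 to 0.923 in the authors' deposited table. Of the 5 mRNAs called on polysomes, HSPA9, TRAP1, LONP1 and HSPE1 had the same sign in whole cells and HSPD1 the opposite one, with none of these whole-cell values past the threshold. The whole-cell sign was itself chosen by its correlation with the fractions. Shared signs are therefore partly built in and are no separate support. The median over the 10 was -0.09, against -0.04 over the 14099 genes present in both tables.

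The spread of counts between polysomes and cytoplasm was described over GC7 and vehicle libraries together, with no test by role. The ratio of mean normalized counts, polysomes over cytoplasm, was 0.71 for HSPA9, 0.89 for HSPD1, 0.97 for TRAP1 and 0.98 for HSPE1. For the proteases it was 1.16 for CLPX, 1.38 for AFG3L2, 1.42 for LONP1, 1.74 for CLPP and 1.91 for YME1L1, and HTRA2, at the 56.6 percentile of all genes, lay between LONP1 and CLPP. Over all genes the median ratio was 1.42, so the 4 chaperones lay between the 4.40 and 16.4 percentiles and the 6 proteases between the 29.2 and 81.9 percentiles. In these pooled ratios the chaperones lay below the proteases, but this order did not hold with GC7, where TRAP1 had 1.23 and the protease CLPX 1.03. Fractions were normalized separately, so the ratio ranks genes and is no share of mRNA on polysomes. Split by group through the computed levels, the ratio of HSPA9 was 0.88 with GC7 and 0.47 with vehicle, and that of TRAP1 was 1.23 with GC7 and 0.72 with vehicle, the same contrast as the differences tested above. Among other mitochondrial genes the median was also lower for chaperones than for proteases, but the ranges overlapped. The 10 other mitochondrial chaperones and co-chaperones had a median of 1.13 and ran from 0.84 for PAM16 to 3.23 for DNAJA3, a J-domain partner of HSPA9, and the 14 other mitochondrial proteases had a median of 1.38 and ran from 0.76 for NLN to 2.12 for METAP1D. The median was 0.94 over 15 cytosolic heat shock chaperones, which reached 3.80 for HSPA8, and 0.99 over 14 ER chaperones, which reached 2.76 for MANF.

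**Figure D3:**
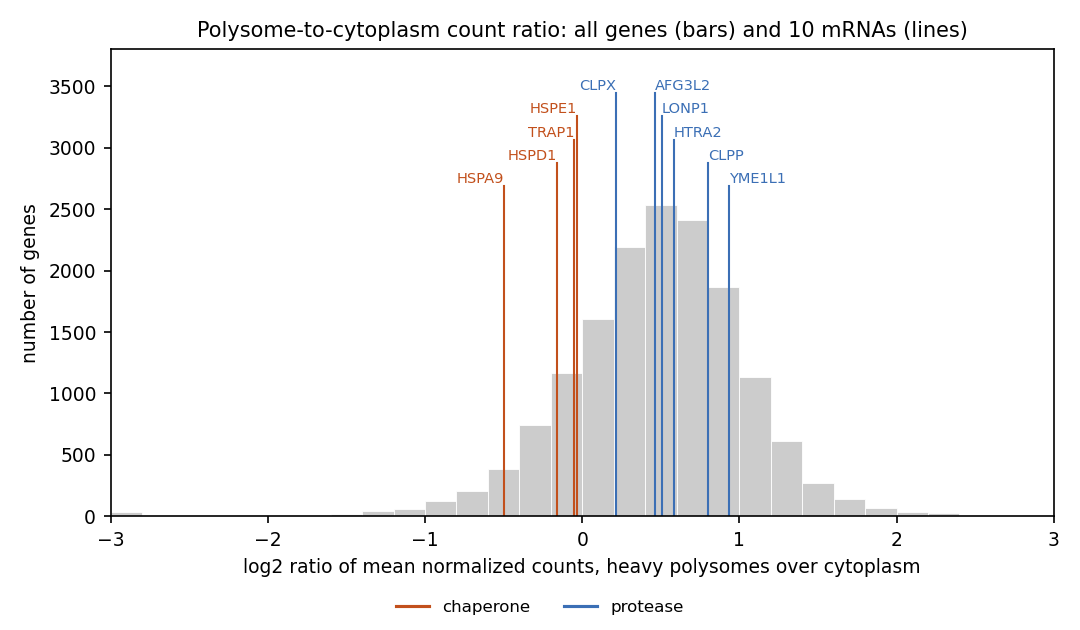
Number of genes (y axis) by log2 ratio of mean normalized counts, heavy polysomes over cytoplasm (x axis, values beyond 3 in size drawn in the end bars), with a line for each of the 10 mRNAs. The 4 chaperones, at ratios of 0.71 to 0.98, lie left of all 6 proteases, at 1.16 to 1.91, in this ratio pooled over GC7 and vehicle; with GC7 alone TRAP1, at 1.23, was above CLPX, at 1.03.

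Per kilobase of canonical transcript, HSPE1 had the highest mean normalized count in cytoplasm, 13507, and CLPX the lowest, 157.6. HSPD1 followed with 2715, HSPA9 with 2575, TRAP1 with 1981, CLPP with 1651 and LONP1 with 1548. HTRA2 had 810.9, AFG3L2 639.1 and YME1L1 384.0. In these means over GC7 and vehicle the 4 chaperones stood above the 6 proteases per kilobase in cytoplasm, but in the computed levels with GC7 the protease LONP1, at 1982 per kilobase, stood above TRAP1, at 1911. On polysomes, per kilobase, HSPE1 remained highest at 13190, CLPP followed at 2879, and HSPA9 at 1821 stood below HSPD1, LONP1 and TRAP1. No spread over libraries is known for these levels, so neighbours in the order may not differ.

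Because eIF5A is known for translation through prolines, runs of proline codons were counted in the GENCODE canonical coding sequences. Of the 10, only CLPX and HTRA2 hold a run of 3 or more, a feature of 26.2% of 12862 genes. The codons are shown with 5 codons to each side, proline codons in capitals, because they are the stretches where such a role would be looked for.
CLPX codons from 165: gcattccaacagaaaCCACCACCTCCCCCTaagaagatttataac
HTRA2 codons from 138: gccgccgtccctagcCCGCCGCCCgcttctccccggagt
CLPX, with 5 proline codons in a row, had an unshrunken polysomal log2 fold change of 0.17 (SE 0.20), and HTRA2, with 3, had -0.01 (SE 0.14). Neither was called, and none of the 5 mRNAs called on polysomes holds such a run, the longest in them being 2 codons. Over all genes, 5.10% of those with a run were called higher and 4.65% lower on polysomes, against 5.74% called higher and 6.34% called lower of those without one.

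Promoter windows from RefSeq were found for 8 of the 10 genes and searched on both strands for 4 motifs. The C/EBP-ATF composite TGATGNAA, the element of ATF4 and CHOP, was in none of the windows of these 8 genes, against 3.62% of all 35116 windows and 2.01% of the 16132 windows of genes in the fraction table. Of the heat shock elements, GAANNTTC (6.77% of all windows, 4.92% of those of fraction-table genes) and TTCNNGAA (7.74% and 6.10% in the same terms), HSPA9 had TTCNNGAA from 4 bases before its start. HSPD1 had both kinds in overlap in the window of its second start, in the run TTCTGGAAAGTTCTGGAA from position -245. The motif of NRF1, a regulator of nuclear genes for mitochondrial proteins, found in 5.78% of all windows and 9.62% of those of fraction-table genes, was in the region shared by HSPD1 and HSPE1, in the upstream window of LONP1 and in that of CLPX. The windows of HSPA9 and LONP1 are shown because these mRNAs had the 2 largest polysomal rises of the 10. For LONP1 only the upstream window, the one with a match, is shown. Its other window, from 5720097 to 5720396, held none of the 4 motifs.
HSPA9 chr5:138575352-138575651 minus strand: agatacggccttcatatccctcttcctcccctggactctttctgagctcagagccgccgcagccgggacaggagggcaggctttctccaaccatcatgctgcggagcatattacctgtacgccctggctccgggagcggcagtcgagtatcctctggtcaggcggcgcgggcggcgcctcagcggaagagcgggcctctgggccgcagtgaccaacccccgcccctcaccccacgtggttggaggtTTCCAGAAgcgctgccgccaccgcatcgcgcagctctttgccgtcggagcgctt
LONP1 chr19:5720403-5720702 minus strand: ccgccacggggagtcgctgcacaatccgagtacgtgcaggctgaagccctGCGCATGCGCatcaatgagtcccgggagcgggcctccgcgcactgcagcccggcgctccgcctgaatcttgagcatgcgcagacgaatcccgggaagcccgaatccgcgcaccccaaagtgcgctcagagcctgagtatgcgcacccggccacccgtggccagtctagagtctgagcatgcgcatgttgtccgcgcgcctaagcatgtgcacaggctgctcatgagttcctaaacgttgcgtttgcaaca
A match is a run of letters and not a shown binding site.

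Partners of these proteins were followed in lists chosen with earlier results of these data known. Of 10 other mitochondrial chaperones and co-chaperones, none was called in cytoplasm or on polysomes, with a median polysomal log2 fold change of 0.07 in the authors' deposited table. They include GRPEL1, the nucleotide exchange factor of HSPA9, at -0.08 (adjusted p = 0.734), and TIMM44, which tethers HSPA9 to the import channel, at 0.29 (adjusted p = 0.117) as the authors' deposited table has it. Of 14 other mitochondrial proteases and peptidases, 2 rose and 1 fell on polysomes and 1 fell in cytoplasm. Over all genes 5.61% were called higher and 5.48% lower on polysomes, and 2.29% higher and 1.95% lower in cytoplasm. PMPCB, a subunit of the peptidase that cuts off import signals, rose on polysomes at 0.52 (SE 0.14, adjusted p = 0.000737), while its partner PMPCA fell in cytoplasm at -0.50 (SE 0.20, adjusted p = 0.0343) and stood at -0.09 on polysomes (adjusted p = 0.689) as the authors' deposited table has it. NLN, an oligopeptidase, rose on polysomes at 0.65 (SE 0.20, adjusted p = 0.00226), and IMMP1L, a subunit of the inner membrane peptidase, fell at -0.84 (SE 0.22, adjusted p = 0.000516), both as the authors' deposited table gives them. SPG7, which forms rings with AFG3L2, stood at -0.16 on polysomes (adjusted p = 0.360) as the authors' deposited table has it. The list of protease scaffolds and adaptors had no call among 6 measured genes. Among them PHB2 stood at 0.04 and STOML2 at -0.04 on polysomes in the authors' deposited table.

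Among 10 regulators named in the mitochondrial unfolded protein response, 1 rose and 1 fell in cytoplasm, and 2 rose and 3 fell on polysomes. DDIT3, which encodes CHOP, rose to log2 fold changes of 1.86 in cytoplasm (SE 0.20, adjusted p = 2.06e-19) and 1.90 on polysomes (SE 0.18, adjusted p = 1.31e-22) as the authors' deposited table has it. ATF5, a transcription factor of this response, fell at -0.61 in cytoplasm (SE 0.22, adjusted p = 0.0186) and -0.80 on polysomes (SE 0.17, adjusted p = 2.43e-05), again by the authors' deposited table. CEBPB rose on polysomes at 0.47 (adjusted p = 0.0064) and ATF4 fell there at -0.37 (adjusted p = 0.0200), as did UBL5 at -0.48 (adjusted p = 0.0203), by the values of the authors' deposited table. The mRNAs of the transcription factors themselves thus moved in both directions.

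HSP70 and HSP90 proteins exist in cytosol, ER and mitochondria as products of separate genes. For HSP70 on polysomes, the authors' deposited table gives 1.29 for mitochondrial HSPA9, 0.56 for ER HSPA5 (SE 0.22, adjusted p = 0.0132) and -0.45 for cytosolic HSPA8 (SE 0.22, adjusted p = 0.0466). HSPA5 also rose in cytoplasm at 0.72 (SE 0.17, adjusted p = 0.000359) as the authors' deposited table has it. For HSP90 the polysomal values in the authors' deposited table were 0.56 for TRAP1, 0.15 for ER HSP90B1 (adjusted p = 0.499), and 0.04 for HSP90AA1 (adjusted p = 0.889) and 0.22 for HSP90AB1 (adjusted p = 0.309) of the cytosol. Differences between these paralogues were not tested. As lists, 15 cytosolic heat shock chaperones had 3 called lower and none higher on polysomes, and 14 ER chaperones had 3 higher and 2 lower. Over all genes 5.61% were called higher and 5.48% lower on polysomes, and no list was tested as a set. Their median polysomal log2 fold changes, from the authors' deposited table, were -0.18 for the cytosolic and 0.08 for the ER list. In the cytosolic list HSPA8 and the co-chaperones AHSA1, which activates HSP90, at -0.32 (SE 0.13, adjusted p = 0.0362), and DNAJB1, a J-domain partner of HSP70, at -0.28 (SE 0.12, adjusted p = 0.0443), were the 3 that fell, per the authors' deposited table. In the ER list HYOU1, an HSP70 relative, rose at 0.63 (SE 0.22, adjusted p = 0.00577) and CANX, the lectin chaperone calnexin, at 0.55 (SE 0.23, adjusted p = 0.0194), while MANF, a secreted ER stress protein, fell at -0.66 (SE 0.16, adjusted p = 0.000158), per the authors' deposited table.

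**Figure D4:**
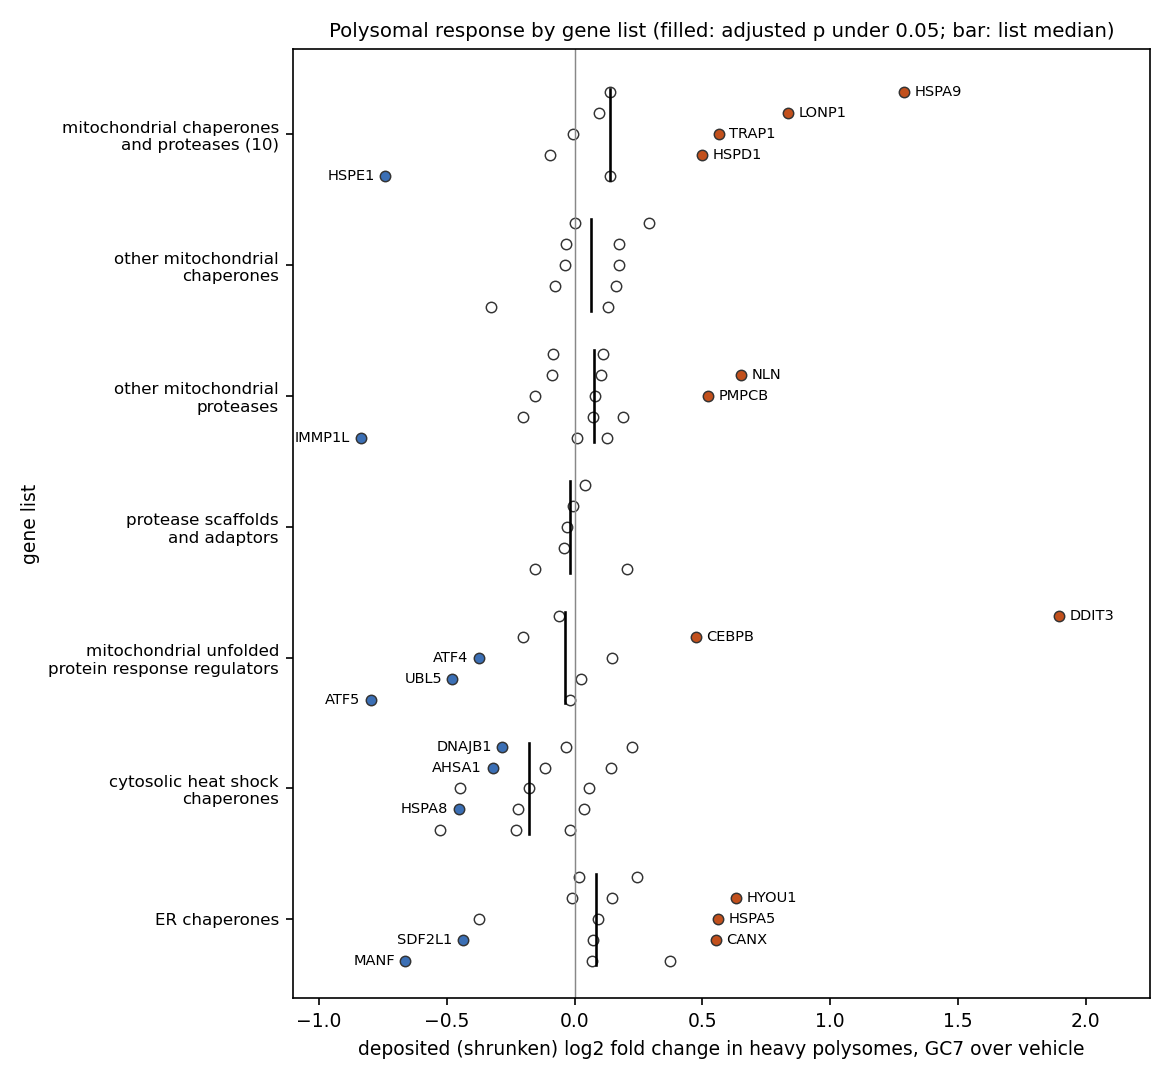
Deposited log2 fold change of GC7 over vehicle on heavy polysomes (x axis) for each gene of 7 lists (y axis), filled where the adjusted p is under 0.05, with the list median as a bar. The 10 chaperones and proteases hold 4 filled points above 0 and 1 below, and the cytosolic heat shock chaperones hold 3 below 0 and none above. Of all genes 5.61% were called higher and 5.48% lower on polysomes.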

How the data were processed

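The values are the authors' comparison tables, not reads or counts. The labels' protocols name GRCh38 with STAR 2.7.8a; the submitters' processing notes also list Salmon 1.4.0, whose role is not given in the sources used here. Per the file headers, the deposited whole-cell table holds a log fold change, taken as log2 because the step of 1 read in 1 library (0.528) is that of base 2, and a p-value. Per the file headers, the fraction table holds the authors' mean normalized count over the libraries of a fraction, log2 fold change, its SE (unit score), p-value and adjusted p-value. For whole cells, Benjamini-Hochberg adjustment was applied to all 44682 p-values.

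Fold changes were unshrunken by inverting a Cauchy prior (natural log scale 0.197 for cytoplasm and 0.203 for polysomes) fitted to the deposited p-values; z values were recovered within 0.1 for 99.7% and 99.8% of genes, and 3 genes were left out of the difference test. The procedure was checked on simulated data with log2 differences of 2 and 4. Smaller ones, of the size seen in the members, were not simulated. No label states a shrinkage method, so the form of the prior was inferred. Group levels assume means over 3 and 3 libraries. Coding sequences come from GENCODE v44 on GRCh38. Python 3.11.15, pandas 2.3.3 and scipy 1.17.1 were used. Members and lists were chosen with earlier results of these data known. The named genes were all 10 members and, per other list, up to 4 genes called in a fraction by smallest polysomal p; GRPEL1, TIMM44, SPG7, PHB2, STOML2, UBL5, PAM16, DNAJA3, METAP1D, the HSP90 genes and neighbouring genes were named after their values were seen.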

Additional observations from a re-analysis of the deposited data

How the results depend on the processing

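With a log2 fold change over 1 required as well, the counts of members called were 0 in cytoplasm, and 1 higher and 0 lower on polysomes. At an adjusted p under 0.01 the polysomal count was 3 higher and 1 lower, and the call of HSPD1 ended. Shares over all genes were not computed under these stricter rules, so these counts cannot be set against them. At an adjusted p under 0.05 the counts did not change with adjustment over genes with a mean normalized count of at least 100. Nor did they change with Benjamini-Hochberg over all deposited p-values. In whole cells 0 members passed under both alternatives. In the difference between fractions 0 members passed under every alternative run, although over all genes the count was 25 with errors correlated at 0.5, 1 with deposited fold changes, 4 at a prior scale 1.5 times larger and 250 at one 1.5 times smaller, where 4 members (HSPA9, TRAP1, CLPP and CLPX) had no value and so could not be called. The adjusted p of HSPA9 ran from 0.458 to 0.999. Its difference was 1.20 both with deposited fold changes and at the larger prior scale. The unadjusted p of HSPA9 in that test was 0.000138 with deposited fold changes (adjusted 0.532) and 0.000682 at the larger scale (adjusted 0.671). For TRAP1 the unadjusted p was 0.0313 and 0.0268 in the same order. Unshrunken medians of the members were 0.38 in cytoplasm and 0.19 on polysomes, the reverse of the order of the deposited medians, 0.10 and 0.14. No paired analysis was possible because the tables hold no values per library, and for the same reason leaving out each replicate was not run.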
